A study of Zea mays with 12 samples.

Results

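The 30 genes described here differed between nkd and B73 in opposite directions in the aleurone and in the starchy endosperm of developing maize kernels. They fell into 2 sets, 11 genes with higher values in nkd aleurone and lower values in nkd starchy endosperm, and 19 genes with the reverse pattern. Aleurone and starchy endosperm come from the same tissue lineage: the aleurone is the epidermis-like outer layer, and the starchy endosperm inside it fills with starch and storage proteins. The naked endosperm mutant, nkd, is mutated at Nkd1 and Nkd2, duplicated loci that encode ID-domain (INDETERMINATE-type zinc finger) transcription factors needed for the normal identity of the aleurone, and its outer endosperm layers are known to be poorly differentiated.

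The 4 groups were nkd aleurone, B73 aleurone, nkd starchy endosperm and B73 starchy endosperm, each with 3 biological replicates. B73 is the wild-type inbred line, and the nkd plants came from generation 4 of backcrossing to B73, so that both genotypes share most of their genome. The sources used here name neither the nkd alleles nor the number of kernels pooled in a library, so p-values measure only the spread between these libraries, which may be partly technical. Kernels were taken 15 days after pollination, cells were laser-captured from paraffin sections, and their RNA was amplified linearly before paired-end sequencing.

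A gene belonged to the list by a rule applied to the deposited normalised reads (read counts divided by 1 size factor per library, 1 table for each cell type). Where a gene had several transcripts, the one with the highest mean over all 12 libraries stood for it. The mean had to reach 50 in each table, which 16131 of 39656 genes did. The 3 nkd and the 3 B73 libraries were not allowed to overlap in either table, and the nkd/B73 ratio of means had to be at least 2 in one table and at most 0.5 in the other. The genes were thus chosen by their nkd and B73 values in all 12 libraries, so these values are given as a description with no test, and so is every comparison of cell types made from the same libraries.

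In aleurone 9.10% of the 16131 genes met the rule as higher in nkd and 12% as lower; in starchy endosperm 8.03% met it as higher and 8.49% as lower. Ranges without overlap, in either direction, were found for 34.0% of genes in aleurone and 24.0% in starchy endosperm. Both tables met the rule for 1267 genes (7.85%), of which 1237 (97.6%) differed the same way, 452 higher and 785 lower in nkd. The 30 genes with opposite directions were 2.37% of these 1267 and 0.186% of the 16131. Without any condition on overlap or ratio, the means lay on opposite sides in 5215 genes (32.3%), 2865 of them higher in nkd aleurone and lower in nkd starchy endosperm and 2350 the reverse.

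**Figure D1:**
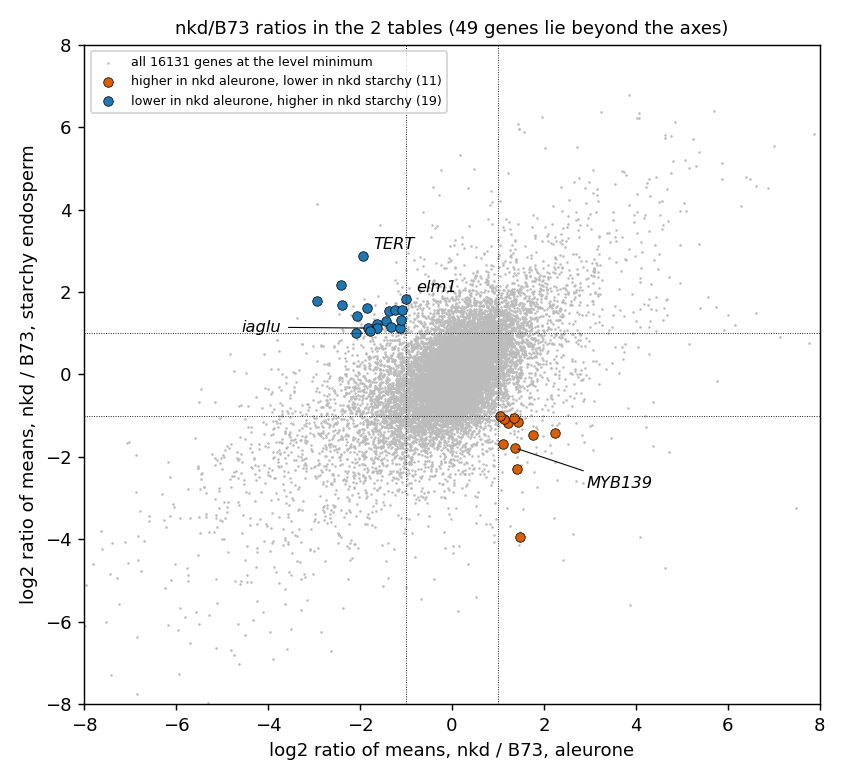
Log2 ratio of means, nkd over B73, in aleurone (horizontal axis) and in starchy endosperm (vertical axis) for the 16131 genes at the level minimum in grey, with the 11 (orange) and 19 (blue) genes that met the rule in opposite directions; dotted lines mark ratios of 2 and 0.5. The cloud of all genes runs from lower left to upper right, and the members lie beyond the dotted lines at the upper left and lower right; 49 genes lie beyond the axes.

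The libraries differed in depth and some stood apart. Counted over 1 transcript per gene, the depth was 27012595 to 46118293 reads in nkd aleurone and 9929041 to 64000784 in B73 aleurone. It was 25766907 to 35474210 reads in nkd starchy endosperm and 9570998 to 57706902 in B73 starchy endosperm. B73 starchy endosperm replicate 2 was close to aleurone: across the 16131 genes its log2 values correlated at 0.889 to 0.938 with the B73 aleurone libraries and at 0.806 and 0.901 with its own group, a description in which genes are not independent. B73 starchy endosperm replicate 3 had the lowest depth and correlated at 0.818 at most within its group. The mutated gene Nkd2 (GRMZM5G884137) had 755, 549 and 463 normalised reads in nkd aleurone, against 2725, 2751 and 2091 in B73 aleurone (limma with Benjamini-Hochberg adjustment over all genes, adjusted p = 0.00259). Nkd1 (GRMZM2G129261) had 4632, 3979 and 3578, against 5992, 5411 and 6911 (limma, adjusted p = 0.212). Neither gene is a member. In starchy endosperm both loci were lower in nkd in every library without passing the test (limma, adjusted p = 0.22 for each).

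Most members have no functional name. RefSeq's gene table (Zm-B73-REFERENCE-NAM-5.0) held 24 of the 30 (8 of the 11 and 16 of the 19), and 4 of these carry a gene name: MYB139, TERT, iaglu and elm1. The other 26 are given by their identifiers, without a role. The 4 named genes differ in kind: a MYB transcription factor, the catalytic subunit of telomerase, an enzyme that attaches glucose to auxin, and an enzyme that makes the light-sensing pigment of phytochromes.

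**Figure D2:**
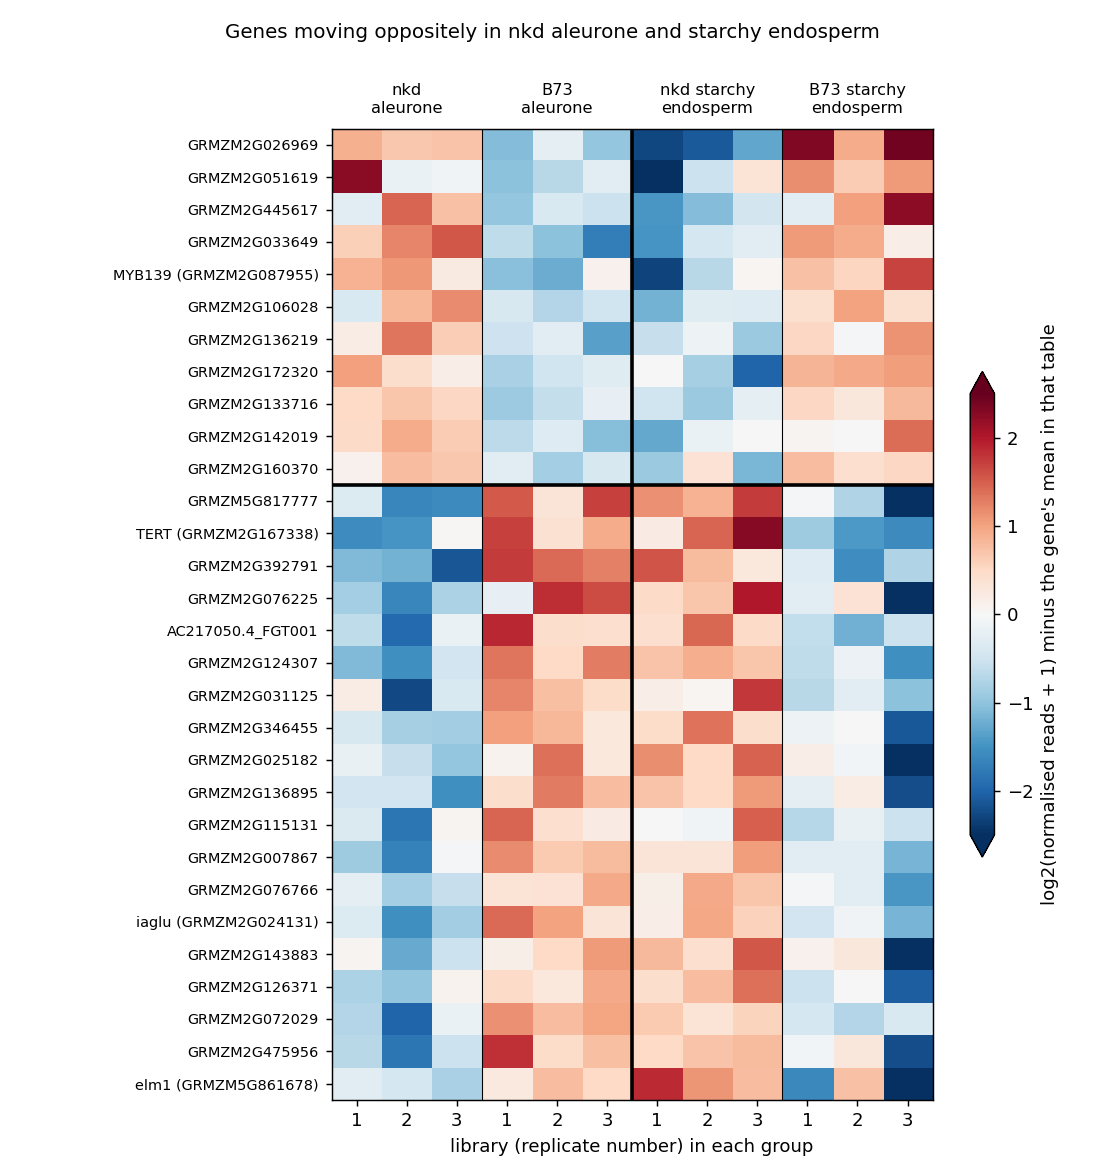
Each row is a member and each column a library, grouped as nkd aleurone, B73 aleurone, nkd starchy endosperm and B73 starchy endosperm; colour gives log2(normalised reads + 1) minus the gene's mean within that table. The thick horizontal line separates the 11 from the 19 genes and the thick vertical line the tables; colours beyond 2.5 are clipped, and B73 starchy endosperm replicate 3 holds many of the darkest blue cells of the lower block.

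The 11 genes that were higher in nkd aleurone and lower in nkd starchy endosperm include 1 named gene. Their nkd/B73 ratios of means ran from 2.06 to 4.74 in aleurone (median 2.58) and from 0.0648 to 0.50 in starchy endosperm (median 0.376). None of the 11 reached a ratio of 3 in both tables. Their mean over the 12 libraries ran from 161 to 1389 normalised reads with a median of 400.04, close to the median of 457 over the 16131 genes.

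MYB139 (GRMZM2G087955) belongs to the MYB family, whose members bind DNA and regulate pathways such as pigment and cell wall synthesis in plants. It had 673, 783 and 435 normalised reads in nkd aleurone, against 179, 155 and 399.7 in B73 aleurone, means of 630.2 ± 178 and 245 ± 135 (SD, n = 3 each). The starchy endosperm values were 24.6, 77.9 and 130.3 in nkd, against 209, 183 and 408 in B73, means of 77.6 ± 52.8 and 267 ± 123 (SD, n = 3 each). The ratio was 2.58 in aleurone and 0.291 in starchy endosperm, or 0.192 there without nkd replicate 3. In aleurone the gap was narrow: nkd replicate 3 stood 1.09 times above B73 replicate 3, while the other nkd libraries were well clear of B73. Among the 25 other MYB genes tested in aleurone (by symbols of the form MYB with a number), 0 were higher and 3 lower in nkd by limma (adjusted p under 0.05), with a median log2 difference of -0.63 against 0.04 over all 26496 genes, of which 6.32% were called higher and 8.28% lower. The 3 were Myb56 (GRMZM2G041415, log2 difference -4.97, limma adjusted p = 0.000392), MYB34 (GRMZM2G125522, -2.90, 0.00223) and Myb36 (GRMZM2G056407, -2.67, 0.012), all 3 named after their values were seen. At an unadjusted p under 0.05 limma listed 8 of the 25, 3 of them higher, and edgeR called 3 after adjustment. In starchy endosperm 0 of 23 other MYB genes were called by limma (2 at an unadjusted p under 0.05, 0 by edgeR), where 0.464% of all 24582 genes were called higher and 1.31% lower.

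The gene with the largest difference in starchy endosperm within this set was GRMZM2G026969. It had 9.84, 11.1 and 20.3 normalised reads in nkd starchy endosperm, against 260.1, 98.4 and 278 in B73, a mean 15.4-fold lower. In nkd aleurone it had 378, 328 and 337, against 95.2, 174 and 104 in B73, a ratio of 2.79. The nkd libraries agreed closely with each other in aleurone (348 ± 26.7, SD, n = 3), and in starchy endosperm the highest nkd library stood 4.85 times below the lowest B73 library, the widest gap of the 11.

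The largest ratio in aleurone was that of GRMZM2G033649, at 4.74. It had 1272, 1955 and 2463 normalised reads in nkd aleurone, against 541, 409 and 251 in B73 aleurone. The starchy endosperm libraries had 81.2, 168 and 188 in nkd, against 473, 431 and 255 in B73, where replicate 3 of both genotypes were the nearest to each other at a factor of 1.36.

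In GRMZM2G051619 a single library carried the aleurone ratio. It had 3078, 573 and 603 normalised reads in nkd aleurone, against 315, 398 and 534 in B73 aleurone, a ratio of 3.41 with an SD of 1438 in nkd that exceeded the nkd mean of 1418. Without nkd replicate 1 the log2 ratio was 0.50. In starchy endosperm it had 37.7, 168 and 309.7 in nkd, against 542, 377 and 507 in B73, a ratio of 0.361 that was 0.216 without nkd replicate 3, and nkd replicate 1, the highest aleurone library, belonged to the same flow cell as the lowest starchy library.

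GRMZM2G133716 had the highest mean of the 11. It had 2728, 3111 and 2759 normalised reads in nkd aleurone, against 1026, 1269 and 1657 in B73 aleurone. The starchy endosperm values were 449, 332 and 542 in nkd, against 908, 772 and 1112 in B73. Both ratios, 2.18 and 0.474, were close to the limits of the rule, but the nearest libraries stood apart by factors of 1.65 and 1.43.

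GRMZM2G172320 had 137, 75.9 and 33.5 normalised reads in nkd starchy endosperm, against 247, 263 and 282 in B73, where its libraries were close to each other; the ratio was 0.311, or 0.207 without nkd replicate 1. In aleurone it had 1161, 776 and 637 in nkd, against 325, 402 and 462 in B73. The remaining 5 genes of the set had ratios in aleurone and in starchy endosperm of 2.67 and 0.205 (GRMZM2G445617), 2.32 and 0.439 (GRMZM2G106028), 2.73 and 0.452 (GRMZM2G136219), 2.55 and 0.484 (GRMZM2G142019), and 2.06 and 0.50 (GRMZM2G160370). Without B73 starchy endosperm replicate 3 the starchy endosperm ratio was 0.362 in GRMZM2G445617 and 0.741 in GRMZM2G142019, and without nkd starchy endosperm replicate 2 it was 0.322 in GRMZM2G160370. In each of these 5 the nearest libraries of the genotypes stood less than 1.2-fold apart in at least 1 table, the closest being GRMZM2G142019 in starchy endosperm, with 129.8 in nkd replicate 3 and 131 in B73 replicate 2.

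The 19 genes that were lower in nkd aleurone and higher in nkd starchy endosperm include 3 named genes. Their nkd/B73 ratios ran from 0.131 to 0.499 in aleurone (median 0.321) and from 2.01 to 7.31 in starchy endosperm (median 2.69). In 5 of the 19, namely GRMZM5G817777, TERT, GRMZM2G392791, GRMZM2G076225 and AC217050.4_FGT001, both ratios were at least 3 in size. Their means over the 12 libraries ran from 67.4 to 1251 normalised reads with a median of 151, against 457 over the 16131 genes.

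TERT (GRMZM2G167338) encodes the telomerase reverse transcriptase, the catalytic subunit that adds telomere repeats to chromosome ends and is typically active in dividing cells. It had 17, 18.3 and 53.7 normalised reads in nkd aleurone, against 173, 68.2 and 100.2 in B73 aleurone, means of 29.6 ± 20.8 and 114 ± 53.9 (SD, n = 3 each). The starchy endosperm libraries had 64.8, 156 and 276 in nkd, against 29.8, 20.2 and 17.9 in B73, means of 166 ± 106 and 22.7 ± 6.32 (SD, n = 3 each). The starchy endosperm ratio of 7.31 was the largest of the 30 genes in that direction, and in aleurone the nkd mean was 3.85-fold lower, a ratio of 0.260. Without nkd replicate 3 of each cell type the ratios were 4.87 in starchy endosperm and 0.155 in aleurone. The values rest on few reads, 14, 27 and 85 in nkd aleurone and 213, 18 and 167 in B73 aleurone, then 79, 308 and 545 in nkd and 14, 45 and 4 in B73 starchy endosperm. Of 6 other genes with telomere-related symbols, all of them single-Myb-histone (Smh) genes whose maize proteins bind telomere repeats, 0 were called in aleurone and 0 in starchy endosperm by limma, at an unadjusted p under 0.05 as well, and 0 by edgeR, with median log2 differences of -0.03 and -0.25.

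The gene iaglu (GRMZM2G024131) encodes a glucosyltransferase that joins the auxin indole-3-acetic acid to glucose, a storage form of the hormone in maize kernels. It had 248, 109.6 and 173 normalised reads in nkd aleurone, against 846, 640.4 and 397 in B73 aleurone, means of 177 ± 69.5 and 628 ± 225 (SD, n = 3 each). In starchy endosperm it had 654, 1138 and 871 in nkd, against 414, 548 and 260.0 in B73, means of 888 ± 243 and 407 ± 144 (SD, n = 3 each). The nkd mean was thus 3.55-fold lower in aleurone and 2.18 times that of B73 in starchy endosperm, with 1.60-fold and 1.19-fold between the nearest libraries. It was one of 7 genes of this set, listed with the read counts below, whose nearest libraries were separated beyond counting error in both tables. This describes the values that chose the gene and is no test. With each of the 12 libraries left out in turn, iaglu met the rule 10 times.

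Other auxin genes were counted by symbol, without regard to case. The family of each gene was not checked, and the list holds both ARF1 (GRMZM2G169820) and arf1 (GRMZM2G395844). Of 44 other genes with auxin symbols (AUX, ARF, PIN and related names) tested in aleurone, 9 were higher and 4 lower in nkd by limma at an adjusted p under 0.05, against 14.6% of all genes tested. Of 37 tested in starchy endosperm 1 was higher and 1 lower, against 1.78% of all genes tested. Their median log2 differences were 0.08 and 0.05, against 0.04 and 0.12 over all genes tested. Among them, named after their values were seen, ARF30 (GRMZM2G475882), an auxin response factor gene, was called higher in both, with log2 differences of 1.48 in aleurone (limma, adjusted p = 0.038) and 4.20 in starchy endosperm (0.0483). edgeR called 13 of the 44 in aleurone and 0 of the 37 in starchy endosperm, so the starchy endosperm call of ARF30 was lost with it. The calls in aleurone included auxin transporter genes of the PIN family in both directions. PIN5c (GRMZM2G040911) had 108 ± 66.7 normalised reads in nkd aleurone and 1078.5 ± 367 in B73 aleurone (SD, n = 3 each; limma, adjusted p = 0.00206). PIN9 (GRMZM5G859099) had 37.2 ± 27.8 in nkd aleurone and 0 in each B73 aleurone library (SD, n = 3; limma, adjusted p = 0.00588).

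The gene elm1 (GRMZM5G861678), also listed as Hy2, encodes the phytochromobilin synthase that makes the chromophore of phytochromes, the red light receptors of plants. It had 249.7, 220.5 and 171 normalised reads in nkd aleurone, against 353, 512 and 421 in B73 aleurone, means of 214 ± 39.7 and 428 ± 79.5 (SD, n = 3 each). The starchy endosperm values were 511, 301 and 238 in nkd, against 44.8, 231 and 17.9 in B73, means of 349.8 ± 143 and 98 ± 116 (SD, n = 3 each). The aleurone mean in nkd was 2.00-fold lower, at the limit of the rule, and in starchy endosperm B73 replicate 2 came within 1.03-fold of nkd replicate 3, while the other B73 libraries held only 21 and 4 reads. The starchy endosperm ratio was 3.57, or 11.2 without B73 replicate 2. Of the phytochrome genes found, PhyB1 (GRMZM2G124532) had 292 ± 51.6 in nkd aleurone and 539.5 ± 141 in B73 aleurone, and 208 ± 46.1 in nkd and 251 ± 64.3 in B73 starchy endosperm (SD, n = 3 each), and neither difference passed (limma, adjusted p = 0.132 and 0.828). phyA2 and PhyB2 had means under 25 in every group. At an unadjusted p under 0.05 limma listed 2 of these 3 genes in aleurone, 0 of them higher in nkd. Their median log2 difference there was -1.6, against 0.04 over all genes tested. In starchy endosperm limma listed 0 of the 1 tested, and edgeR called 0 in each cell type.

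**Figure D3:**
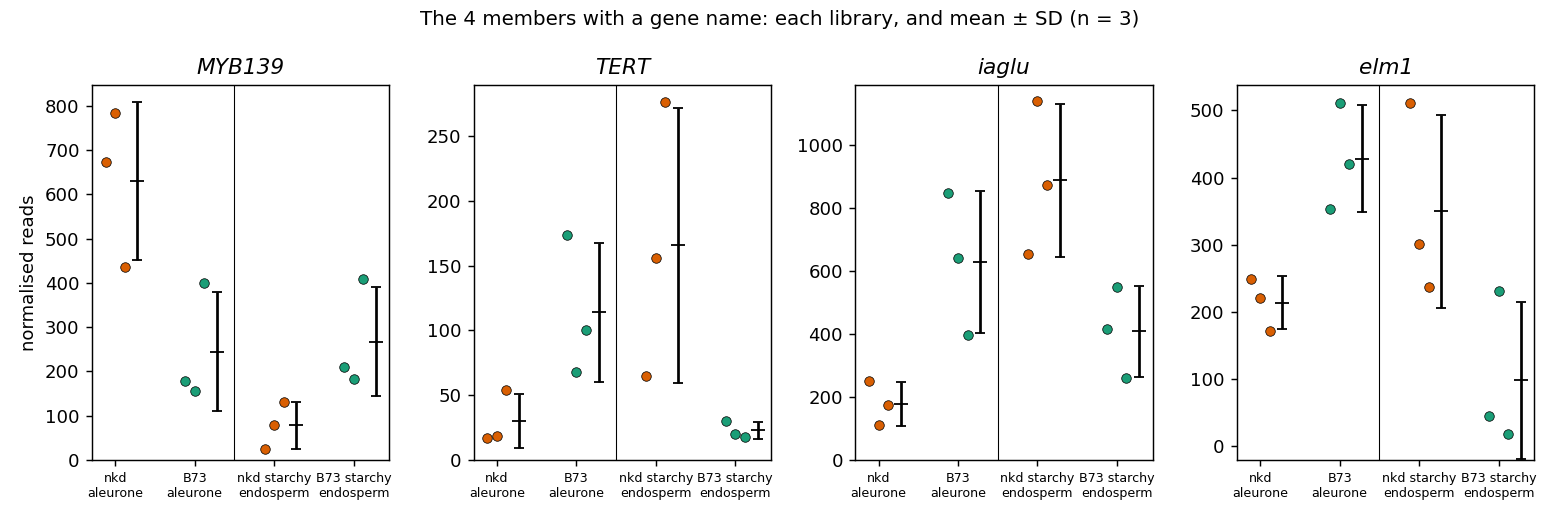
Normalised reads (vertical axis, own scale in each panel) of MYB139, TERT, iaglu and elm1 in each library, with the mean and SD (n = 3) beside each group; nkd libraries are orange and B73 libraries green. The genotypes do not overlap in either cell type and their order turns round between the cell types, for elm1 with B73 starchy endosperm replicate 2 at 231 next to nkd replicate 3 at 238.

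GRMZM2G392791 had the lowest aleurone ratio of the 19, with a mean 7.64-fold lower in nkd. It had 37.6, 35.2 and 17.7 normalised reads in nkd aleurone, against 274, 219.8 and 197 in B73 aleurone. The starchy endosperm libraries had 681, 392 and 272 in nkd, against 181, 76.8 and 134 in B73, a ratio of 3.43. Its aleurone libraries were separated by a factor of 5.24, the widest gap of all 30 genes in either table. RefSeq assigns a second gene model, GRMZM2G093755, to the same entry, and this model behaved otherwise, with ratios of 1.2 in aleurone and 0.789 in starchy endosperm at table means of 48.2 and 30.2 normalised reads.

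GRMZM2G124307 was the most abundant of the 19. It had 509, 377 and 783 normalised reads in nkd aleurone, against 2769, 1549.7 and 2654 in B73 aleurone. In starchy endosperm it had 1481, 1701 and 1461 in nkd, against 588, 825 and 314 in B73. The nearest libraries stood 1.98-fold apart in aleurone and 1.77-fold in starchy endosperm.

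AC217050.4_FGT001 had 154, 61.5 and 213 normalised reads in nkd aleurone, against 888, 326 and 319 in B73 aleurone, and 403, 812 and 416 in nkd, against 196, 130.3 and 206 in B73 starchy endosperm. Its aleurone ratio was 0.279, or 0.443 without B73 replicate 1. GRMZM2G072029 had 107, 44.0 and 158 in nkd aleurone, against 393, 307 and 354 in B73 aleurone, and 252, 202 and 233 in nkd, against 117, 94.8 and 121 in B73 starchy endosperm. In AC217050.4_FGT001 and GRMZM2G072029, as in no other of the 19, B73 replicate 3 was the highest B73 starchy endosperm library. GRMZM2G346455 had 463, 347 and 334 in nkd aleurone, against 1248, 1091 and 738 in B73 aleurone, and 881, 1642 and 873 in nkd, against 591, 635 and 148 in B73 starchy endosperm.

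In GRMZM5G817777 and GRMZM2G076225 the B73 starchy endosperm mean included a library with 1 read. GRMZM5G817777 had 93.5, 76.4 and 142 normalised reads in nkd starchy endosperm, against 40.5, 24.3 and 4.48 in B73, and 37.6, 14.9 and 15.2 in nkd, against 140.0, 60.6 and 159.7 in B73 aleurone. GRMZM2G076225 had 72.2, 85.0 and 212 in nkd starchy endosperm, against 42.6, 67.0 and 4.48 in B73, and 59.4, 34.5 and 62.5 in nkd, against 93.6, 390.3 and 339 in B73 aleurone. Without that library their starchy endosperm log2 ratios were 1.68 and 1.17. The starchy endosperm ratio of GRMZM5G817777, 4.50, was 7.23 without B73 replicate 1, and its aleurone ratio of 0.188 was 0.125 without nkd replicate 1. The starchy endosperm ratio of GRMZM2G076225, 3.24, was 2.07 without nkd replicate 3 and 5.22 without B73 replicate 2.

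The other 9 genes of this set follow by their ratios. Aleurone and starchy endosperm ratios were 0.387 and 2.90 in GRMZM2G031125, 0.423 and 2.96 in GRMZM2G025182, 0.323 and 2.35 in GRMZM2G136895, and 0.401 and 2.21 in GRMZM2G115131. They were 0.321 and 2.19 in GRMZM2G007867, 0.457 and 2.19 in GRMZM2G076766, 0.464 and 2.51 in GRMZM2G143883, 0.473 and 2.97 in GRMZM2G126371, and 0.236 and 2.01 in GRMZM2G475956. Without nkd starchy endosperm replicate 3 the starchy endosperm ratio was 1.69 in GRMZM2G031125 and 1.34 in GRMZM2G115131. A second model of the RefSeq entry of GRMZM2G076766, GRMZM2G012756, had ratios of 0.480 and 2.00 but overlapping starchy endosperm libraries, so it was no member. The models had the same value in nkd starchy endosperm replicate 1 (83.7) and in B73 starchy endosperm replicate 3 (26.9), and whether they share reads was not tested.

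The depth behind the 19 genes was lowest in B73 starchy endosperm replicate 3, where 12 of them had fewer than 10 reads and the median was 6 reads, with a range of 1 to 70. That library held the lowest B73 starchy endosperm value in 15 of the 19 genes, against 39.4% of the 16131 genes and 50.4% of the 452 genes that were higher in nkd in both tables. Without it, 12 of the 19 still met the rule, and the median starchy endosperm ratio of the 19 was 2.16 in place of 2.69. The 11 genes of the other set had 24 to 248 reads in that library, and 8 of them met the rule without it. Whether the depth of that library contributed to the pattern was not tested.

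**Figure D4:**
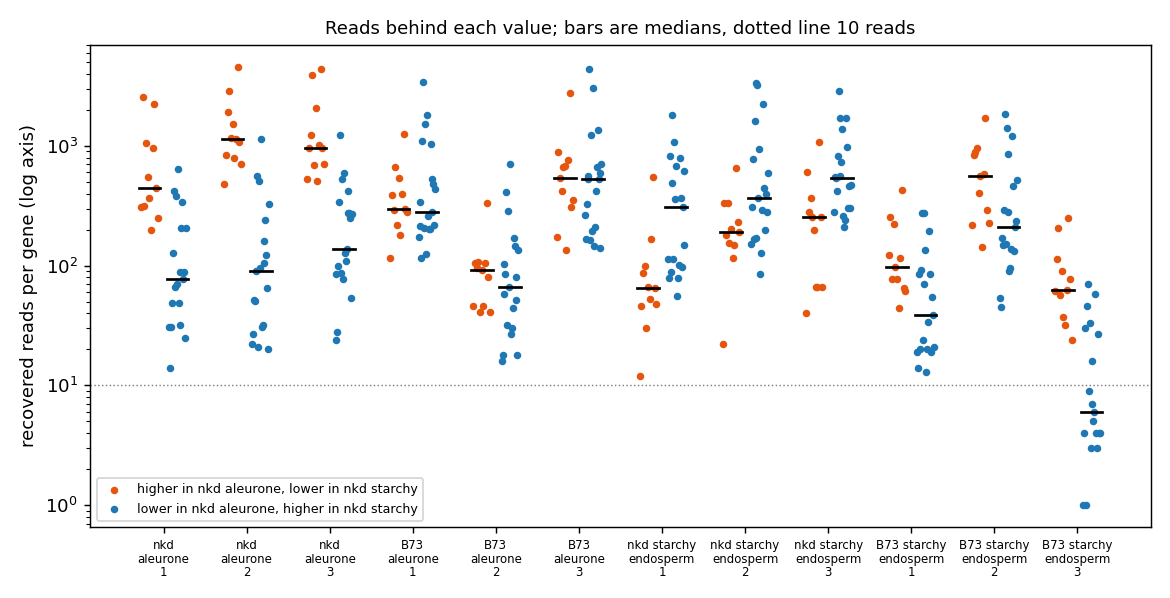
Recovered reads per gene (vertical axis, logarithmic) in each library for the 11 genes higher in nkd aleurone and lower in nkd starchy endosperm (orange) and the 19 genes of the reverse pattern (blue); bars are medians and the dotted line marks 10 reads. In B73 starchy endosperm replicate 3 the median of the 19 genes is 6 reads, below every other library.

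B73 starchy endosperm replicate 2, the library close to aleurone, was the nearest B73 library to nkd, that is the highest of its group, in 12 of the 19 genes, and the lowest of its group in 7 of the 11. Over all 16131 genes it was the highest of its group in 30.7% and the lowest in 29.8%. Without it, 48 genes met the rule as lower in nkd aleurone and higher in nkd starchy endosperm, 18 of them among the 19, and 16 met it in the reverse direction, 10 of them among the 11. Leaving out any library leaves fewer to overlap, and leaving out some others raised the counts as well, as given below. The median starchy endosperm ratio of the 19 was then 3.23, and that of the 11 was 0.383.

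The separation of the genotypes was narrow for many members. The nearest nkd and B73 libraries of the 11 genes stood a median 1.37-fold apart in aleurone and 1.36-fold in starchy endosperm, and those of the 19 genes 1.52-fold and 1.26-fold. Exact 95% Poisson intervals of the reads in these nearest libraries, which cover counting error only, did not overlap in either table for 3 of the 11 genes (GRMZM2G026969, GRMZM2G172320 and GRMZM2G133716). They did not overlap for 7 of the 19 genes (GRMZM2G392791, AC217050.4_FGT001, GRMZM2G124307, GRMZM2G346455, GRMZM2G136895, iaglu and GRMZM2G072029). In the other 20 genes the intervals overlapped in at least 1 table, which does not by itself place a difference within counting error. Leaving out each of the 12 libraries in turn kept 3 of the 11 genes (GRMZM2G026969, GRMZM2G033649 and MYB139) and 5 of the 19 (TERT, GRMZM2G392791, GRMZM2G076225, AC217050.4_FGT001 and GRMZM2G124307) in the list every time. A left-out library cannot make a member's ranges overlap, so members could be lost only by the ratio or level limits. Of 360 ratios formed without 1 library, 17 in 13 genes moved by over 1.5 times, each given beside its gene. That 0 changed side follows from the rule, since groups without overlap stay apart when a library is left out. The count of the first set exceeded 1.5 times the main one without nkd aleurone replicate 3 (26), nkd starchy endosperm replicate 3 (30) or B73 starchy endosperm replicate 1 (25). That of the reverse set did so without nkd aleurone replicate 1 (29) or 3 (38), nkd starchy endosperm replicate 2 (33), or B73 starchy endosperm replicate 1 (30) or 2 (count given above). GRMZM2G026969, GRMZM2G392791, AC217050.4_FGT001 and GRMZM2G124307 had separations beyond counting error in both tables and stayed in the list each time. Both counts use the values that chose the genes, so they describe these genes and are no test of them.

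The scaling of the libraries bore on these genes. With values scaled to the library total (CPM), the median log2 ratio of the 16131 genes moved by 0.45 in aleurone and 0.92 in starchy endosperm. Then 10 of the 11 and 19 of the 19 genes still had means on opposite sides, but 2 and 11 had libraries without overlap in both tables, and the starchy endosperm log2 ratio of GRMZM2G142019 turned to 0.04. The members' directions are relative to the deposited scaling, under which that median was 0.08 in aleurone and 0.02 in starchy endosperm.

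The labels place the libraries of one replicate number on one flow cell, so the ratios can also be formed within flow cells. Asking in place of non-overlap that all 3 same-numbered ratios lie on one side and that their geometric mean be at least 2 or at most 0.5 (the replicate number as a block) gave 30 genes in the first direction and 33 in the reverse, including 10 of the 11 and 18 of the 19. Members meet the first of these conditions by the rule that chose them, so only the geometric mean could drop them. For the same reason none of their ratios within flow cells could cross 1. Within flow cells the ratios of the 11 genes ran from 1.01 to 9.79 in aleurone and from 0.0378 to 0.952 in starchy endosperm. Those of the 19 genes ran from 0.0884 to 0.943 in aleurone and from 1.06 to 47.3 in starchy endosperm, the highest being GRMZM2G076225 on flow cell 3, where B73 had 1 read.

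Levels in the 2 cell types were set side by side on 1 scale, as CPM (recovered reads scaled to library size) with TMM factors over all 12 libraries. Among the 11 genes, all 11 nkd means were higher in aleurone than in starchy endosperm, by 3.14 to 12.7 times (median 4.10), and in 10 of them the nkd libraries of the cell types did not overlap, against 14.4% of all 16131 genes with nkd aleurone above nkd starchy endosperm in this way. In B73 only 1 of the 11 had the higher mean in aleurone; the aleurone mean was a median 0.629 of the starchy endosperm mean, and the ranges overlapped in 9. The other 2 had starchy endosperm above aleurone without overlap, as had 12% of all genes in B73. The largest contrast was again in GRMZM2G026969, at 8.28 ± 0.457 CPM in nkd aleurone and 0.65 ± 0.246 in nkd starchy endosperm, against 2.95 ± 0.889 in B73 aleurone and 9.56 ± 4.08 in B73 starchy endosperm (SD, n = 3 each).

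Among the 19 genes, all 19 nkd means were lower in aleurone than in starchy endosperm, and 18 had no overlap between the cell types, against 15.6% of all 16131 genes with nkd starchy endosperm above nkd aleurone in this way. The nkd starchy endosperm mean was 1.81 to 30.0 times the nkd aleurone mean (median 5.57). In B73 15 of the 19 had the higher mean in aleurone, with a median aleurone/starchy endosperm ratio of 1.93, and 8 had no overlap, against 12.4% of all genes with B73 aleurone above B73 starchy endosperm in this way. Over all 16131 genes the mean was higher in aleurone for 47.2% in nkd and 47.7% in B73. The rule fixes much of this, since the nkd and B73 libraries it used are those compared here.

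**Figure D5:**
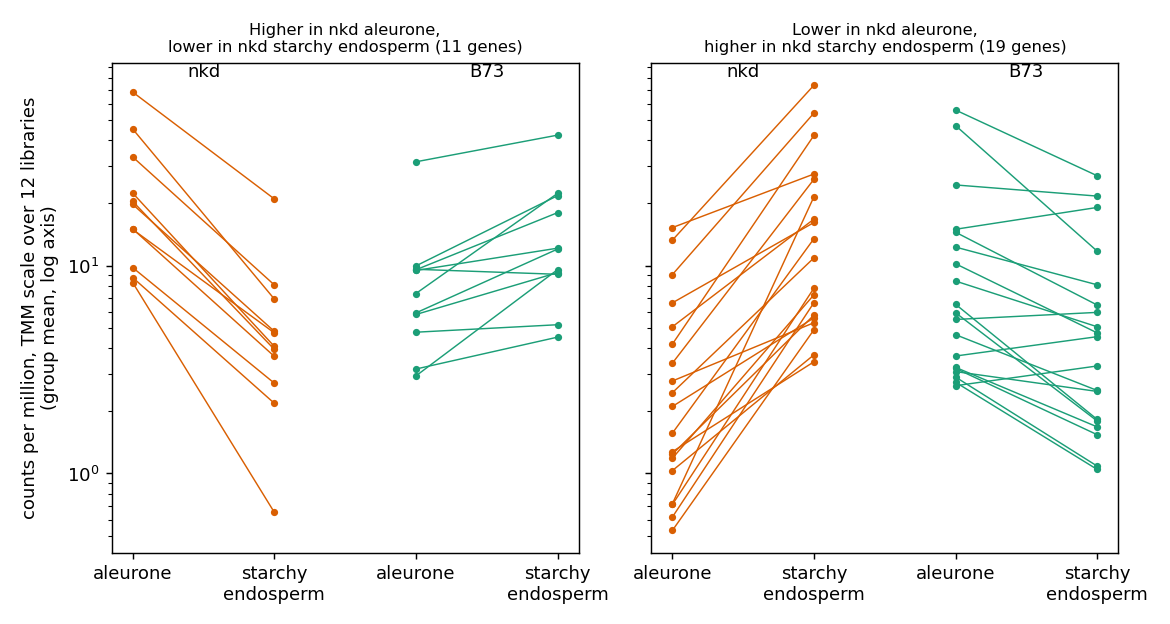
Group means of each member in CPM on 1 TMM scale (vertical axis, logarithmic); lines join aleurone to starchy endosperm within nkd (orange) and within B73 (green). In the left panel all 11 nkd lines slope down, against 1 of the B73 lines; in the right panel all 19 nkd lines slope up, against 4 of the B73 lines.

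Some features that the rule did not use were compared. Of the 30 genes, 13 have a single annotated transcript (8 of the 11 and 5 of the 19). The share of such genes over all genes was not computed, so these counts have nothing to be compared with. In RefSeq order the nearest flanking genes at the level minimum could be found for 23 members, 43 flanks in all. Of these flanks 16 (37.2%) had means on opposite sides in the 2 tables, against 32.3% of all genes, 9 differed like their member in both tables, and 0 were members. Over all 16131 genes the means differed as in the first set in 2865 and as in the reverse set in 2350. The closest members were GRMZM2G026969 and GRMZM2G033649, both of the first set, with 68 annotated genes between them.

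Markers of the captured cell types and of neighbouring cells were counted by list. The 33 starchy endosperm genes (zeins, starch enzymes and their regulators) took 0.232% to 1.02% of reads in nkd aleurone, against 14.7% to 27.8% in B73 aleurone, and 5.11% to 11.9% in nkd starchy endosperm, against 26.5% to 41.8% in B73 starchy endosperm. By limma 29 of the 32 tested were lower in nkd aleurone and 9 of 32 lower in nkd starchy endosperm, and edgeR called 29 and 1. Genes with a table mean under 5 were not tested. In this list ae1 was at 0 reads in B73 aleurone and in B73 starchy endosperm, but not throughout either nkd group. In such bulk samples, fewer cells of a type and less RNA per cell cannot be told apart. All these are shares of a library's total, so a lower share of 1 list leaves higher shares for other genes. Scaled to the library total, the median log2 ratio of all genes at the level minimum was 0.53 in aleurone and 0.94 in starchy endosperm.

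The 7 aleurone genes took 0.746% to 1.62% of reads in nkd aleurone, against 0.630% to 1.12% in B73 aleurone, and 0.0232% to 0.115% in nkd, against 0.0330% to 0.170% in B73 starchy endosperm. In this list c1, which controls aleurone pigment, was at 0 reads in nkd aleurone, B73 aleurone and nkd starchy endosperm; by limma 2 of the 6 tested genes were higher in nkd aleurone and 0 of 6 were called in starchy endosperm (2 at an unadjusted p under 0.05, 0 by edgeR). The 10 genes of the basal transfer layer, the nutrient uptake cells at the kernel base, took 0.0024% to 0.0321% in nkd aleurone, against 0.00099% to 0.0032% in B73 aleurone, and 0.0025% to 0.0519% in nkd, against 0.00081% to 0.0027% in B73 starchy endosperm. Of the 9 tested in each cell type 0 passed limma (0 in aleurone and 3 in starchy endosperm at an unadjusted p under 0.05, and 0 by edgeR in each). The 4 embryo-surrounding genes took at most 0.0026% and the 6 pericarp and nucellus genes at most 0.0181% of reads in any library, both highest in nkd aleurone, and the 5 embryo genes took 0.0160% to 0.0225% in nkd aleurone, against 0.0067% to 0.0185% in B73 aleurone. By limma 2 of 5 pericarp and nucellus genes and 1 of 4 embryo genes tested were higher in nkd aleurone, and 1 of 5 pericarp and nucellus genes was higher in nkd starchy endosperm. Of the embryo-surrounding genes 0 of 4 tested in aleurone and 0 of 1 in starchy endosperm were called by limma, at an unadjusted p under 0.05 as well, and 0 by edgeR. In B73 starchy endosperm esr1, ESR3 and ebe2 were at 0 reads. None of the 30 members is on these lists, but the lists were matched by symbol, so members without a gene name could not be found on them. The part of other cells in the members' values was not tested.

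The members nearest to the limits were as follows. Just inside, GRMZM2G160370 had ratios of 2.06 and 0.50, elm1 0.499 and 3.57 (11.2 without B73 starchy endosperm replicate 2), and GRMZM2G475956 0.236 and 2.01. Just outside the ratio limit were GRMZM2G457346 at 2.21 in aleurone and 0.501 in starchy endosperm, GRMZM2G064613 at 1.96 and 0.424, and GRMZM2G111451 at 1.88 and 0.235. In the reverse direction these were GRMZM2G471108 at 0.502 and 3.40, GRMZM2G118265 at 0.490 and 1.98, and GRMZM2G133958 at 0.514 and 2.15. By level, GRMZM2G115131 had the lowest table mean of any member, 53.3 normalised reads in starchy endosperm, and GRMZM2G006480, with a mean of 38.1 there and ratios of 0.271 and 3.42, was among the nearest genes outside, as was AC207728.2_FGT003 with a mean of 40.9 in aleurone.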

How the data were processed

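The authors deposited 2 tables of signal values, 1 per cell type with 6 libraries each, over 63540 transcripts. FastQC, TopHat and DESeq are listed in the submitters' processing notes, with no versions. Genome build, annotation, strand and the handling of multi-mapping reads: not given in the sources used here. Within a tolerance of 0.01, 100% of the deposited values were whole multiples of 1 step per library, so reads could be recovered. Since no strand setting is stated, reads of a gene and of one overlapping it cannot be separated, and values of near-identical genes are uncertain. Per the labels' protocols, RNA was amplified with T7 RNA polymerase, which can alter relative levels.

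The rule for members was applied to the deposited values. Genes that are not members were tested per table with limma 3.58.1 in R 4.3.3 on log2(value + 1), mean at least 5, Benjamini-Hochberg adjustment, two-sided, threshold 0.05; a pseudocount of 1 understates changes of low genes. edgeR 4.0.16 gave TMM factors and an alternative test, which called 3571 genes in aleurone and 199 in starchy endosperm, against 3868 and 437 with limma. The tests were checked on simulated counts with the same variability for every gene and no deviating library. That check does not cover libraries that stand apart, as in B73 starchy endosperm. Python 3.11.15, pandas 2.3.3, numpy 2.4.6, scipy 1.17.1 and matplotlib 3.10.9 were used.

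Members and lists were chosen with earlier results of these data known; the telomere and phytochrome lists and the flanking genes were chosen after the members had been seen. All members of a set were to be named if it held 20 or fewer. RefSeq matched 18775 of 39656 genes (47.3%) and gave names but no descriptions, so families were found by symbol. Replicate numbers pair libraries by flow cell per the labels' protocols; deviations of same-numbered libraries from their group means correlated at -0.13, 0.07 and -0.02 in aleurone and 0.04, -0.01 and -0.05 in starchy endosperm.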

Additional observations from a re-analysis of the deposited data

Results flagged for a closer look

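By the rule that chose them, every nkd library lay on one side of B73 in aleurone and on the opposite side in starchy endosperm for 11 genes (higher in nkd aleurone) and for 19 genes (lower in nkd aleurone). The difference between the cell types was not tested for them, because the same values chose the genes. Groups of 3 are too small for a search for outlying libraries.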

How the results depend on the processing

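The main counts were 11 genes higher in nkd aleurone and lower in nkd starchy endosperm and 19 of the reverse pattern, given in this order below. The counts were 2 and 38 as CPM of the library total and 4 and 29 without zeins in the total. These scalings moved the median log2 ratio of all 16131 genes by 0.45 and 0.92 (aleurone and starchy endosperm) and by 0.17 and 0.44; TMM factors moved it by 0.02 and 0.04 and gave 9 and 20 genes. Of 660 recomputed ratios of single members, 614 were classed as the same, 45 as moved and 1 as reversed. The reversed one was GRMZM2G142019 in starchy endosperm, at a log2 ratio of 0.0419 as CPM of the library total. The counts were 24 and 37 with a ratio of 1.5, 0 and 5 with a ratio of 3, 7 and 9 with ratios of medians, and 30 and 33 with the replicate block. A minimum mean of 100 gave 10 for the reverse pattern. With 2 alternatives chosen after seeing the data they were 38 and 45 with no minimum ratio, and 3 and 7 where Poisson intervals of the nearest libraries had to be apart. Leaving out 1 library gave 8 to 30 and 15 to 48 genes, and leaving out flow cell 1, 2 or 3 gave 26, 25 and 107 and 54, 82 and 59, with fewer libraries to overlap. Transcript choice and a minimum mean of 20 kept both counts within 1.5 times. Over all genes, limma called 3868 in aleurone (1945 to 3724 with 1 library left out, 2994 with the replicate block). In starchy endosperm it called 437, against 199 with edgeR, 215 with no filter on low values, 626 with the replicate block and 25 to 211 with 1 library left out. Depth was low for the 19 genes in B73 starchy endosperm replicate 3, with a median of 6 reads.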
